A study of Equus caballus with 19 samples.

Results

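The blood transcripts of 5 genes of the acute inflammatory response, TNF, IL1A, IL6, CXCL8 and PTGS2, were measured in young horses kept under contrasting housing. The genes were found on the arrays through the RefSeq transcript accession of each probe, which gave 14 of the 43384 probes and 5 of the 799 genes that could be named. TNF and IL6 had 1 probe each, IL1A and PTGS2 had 3 each, and CXCL8 had 6.

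The study followed 19 Welsh foals that were 10 months old at the start and were treated for 12 weeks. The 9 control horses (6 males and 3 females), whose condition the labels call impoverished, stayed stabled apart from short solitary outings. They had no physical contact with another horse, although others were within sight, smell and hearing. The 10 EE-treated horses (4 males and 6 females) received environmental enrichment (EE), in which they grazed as a group outside stable hours, had a roomier stall with other bedding and feed, and met sensory stimuli such as brushes to rub against and unfamiliar items. Company, movement, time outdoors, bedding and feed thus differed together between the groups and cannot be told apart. Venous blood was taken once from each horse after 12 weeks into tubes that stabilise RNA at collection, and each horse's RNA went onto 1 array of its own, with a single dye. The labels number every horse, so that the replicates are separate animals.

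TNF, interleukin 1 alpha and interleukin 6 are cytokines that start and spread inflammation, CXCL8 (interleukin 8) attracts neutrophils, and PTGS2 (cyclooxygenase 2) is the inducible enzyme that begins prostaglandin synthesis. In leukocytes these genes are induced within hours by microbial products through Toll-like receptors and NF-κB, and their mRNAs are short-lived. In resting blood several of them are known to be little transcribed.

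The signal of each array was scaled so that its 75th percentile was 500, and levels are given as the log2 of this normalized signal. A spot was taken as detected when the scanner software marked it as well above background. Between 26829 and 30502 of the 43803 non-control spots of an array were marked so, and the precision of all values is limited by how many arrays there were. Markers of the cell types of blood were present, since MMP9 and LTF (neutrophils), CD14 and CD68 (monocytes), GZMB and KLRB1 (natural killer cells), CD2 and IL7R (T cells), ITGA2B (platelets) and HBA2 and HBB (red cells) were each detected on all 19 arrays. No gene of the B cell and eosinophil lists could be named through the RefSeq accessions used here.

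TNF and PTGS2 were detected in the blood of every horse, and IL1A, IL6 and CXCL8 were not. The TNF probe and 2 of the 3 PTGS2 probes were well above background on all 19 arrays, that is, 3 of the 14 probes (21.4%), against 24524 of the 43384 probes in all (56.5%). The other 11 probes were well above background on at most 2 arrays each, and 4 of them on 0 arrays. Thus 28.6% of the 14 probes were well above background on 0 arrays and 50% on 1 or 2 arrays, against 20.2% and 9.34% of all probes. The third PTGS2 probe was among the 11, with control horse470 and EE-treated horse469 as the only detections, so that the probes of PTGS2 differed in whether they detected the gene at all.

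For IL1A, IL6 and CXCL8, 9 of 190 spots were well above background, in 8 different horses. Of these spots, 4 were in control horses and 5 in EE-treated horses. IL1A was detected in control horse650, at a log2 signal of 5.54, and in EE-treated horse475 and horse473, at 2.57 and 5.74. CXCL8 was detected in control horse477 and horse472, at 6.25 and 5.24, and in EE-treated horse473 and horse643, at 5.21 and 5.04. IL6 was detected in control horse471 and EE-treated horse468, at 2.62 and 4.44.

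Each of these IL1A and CXCL8 detections came from a single probe. On the same arrays, 0 of the other probes of the gene were well above background, and their highest log2 signal was 0.90, 0.61 and 2.19 for the 3 IL1A spots and between 0.91 and 3.07 for the 4 CXCL8 spots. The CXCL8 signal of 6.25 in control horse477, for example, stood beside at most 2.09 from the other 5 CXCL8 probes in the same horse. Probes of a gene can differ in level, however, since the third PTGS2 probe lay on average 6.3 and 7.2 below the other PTGS2 probes. Such gaps therefore cannot show whether a detection by a single probe was sound. For IL6, with 1 probe, no comparison between probes could be made.

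**Figure D1:**
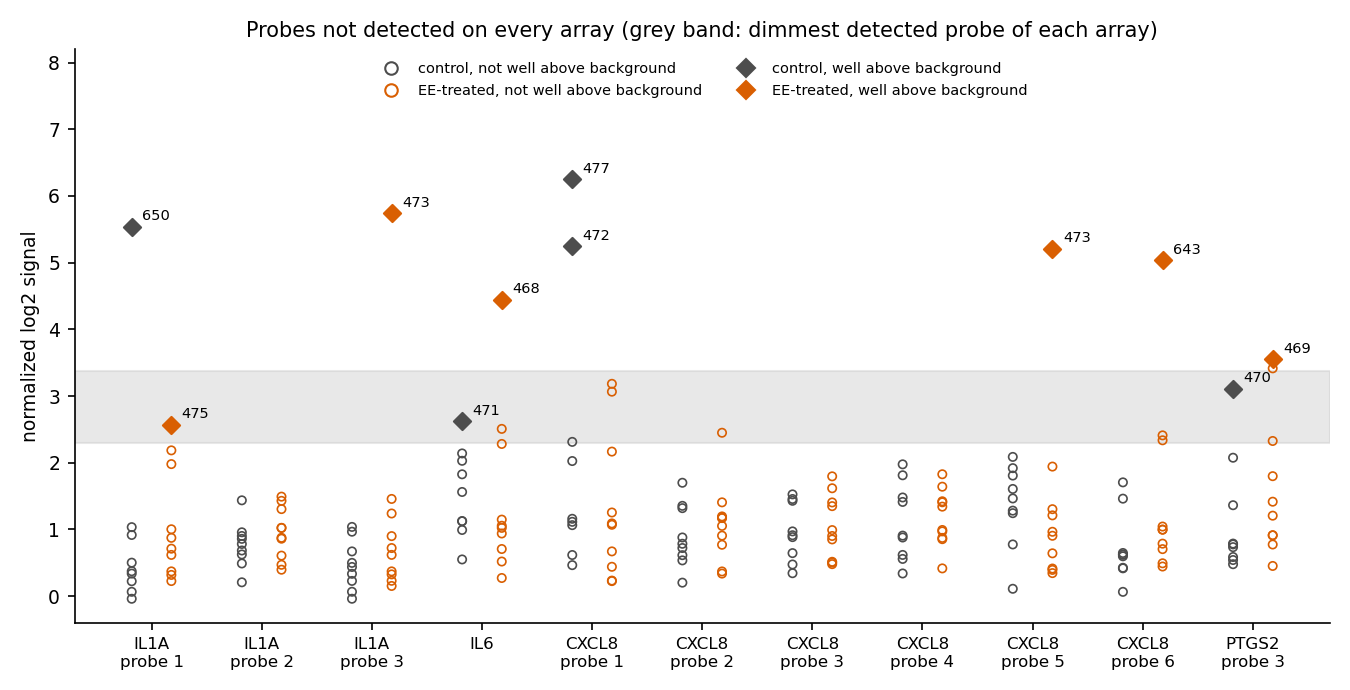
Normalized log2 signal (vertical axis) of the 11 probes that were not detected on every array, with 1 point per horse, control horses in grey and EE-treated horses in orange. Filled diamonds are spots well above background, labelled with the horse number, open circles are the other spots, and the grey band spans the dimmest detected probe of each array, from 2.29 to 3.37; there are 11 diamonds among 209 spots.

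A less strict mark of the software, a positive and significant signal, gave more detections. By this mark IL6 was detected on 13 of 19 arrays, the 6 CXCL8 probes on 6 to 14 arrays and the 3 IL1A probes on 5, 1 and 5 arrays. It gave 85 detections among the 209 spots of the 11 dim probes, against 11 by the stricter mark, and still detected only TNF and the same 2 PTGS2 probes on all 19 arrays.

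How far the probes of a gene moved together differed between genes and, for CXCL8, between pairs of probes. The 2 PTGS2 probes detected everywhere (probe 1, A_69_P000996, and probe 2, A_69_P000997) had a Pearson r of 0.67 over the 19 horses. Their log2 difference, probe 1 minus probe 2, varied by 0.42 (SD) between horses. The third PTGS2 probe had an r of 0.68 with probe 1 and 0.46 with probe 2, although it was dim. Among the 3 IL1A probes r lay between 0.23 and 0.29, and among the 15 pairs of CXCL8 probes it lay between -0.37 and 0.71, with a median of 0.073. These values are descriptions, given without a test.

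TNF was higher in the EE-treated horses. In the 9 control horses the log2 signal was lowest at 8.06 (horse477), had a median of 9.27 and was highest at 9.71 (horse650). In the 10 EE-treated horses it was lowest at 9.21 (horse643), had a median of 9.72 and was highest at 10.11 (horse651). The groups overlapped, but 4 control horses (horse477, horse470, horse476 and horse645) lay below every EE-treated horse and 6 EE-treated horses lay above every control horse.

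TNF had a mean of 9.09 ± 0.58 (SD, n = 9) without enrichment and of 9.70 ± 0.28 (SD, n = 10) with it, a 1.53-fold difference. The control mean was exceeded in 10 of 10 EE-treated horses. The log2 difference, EE minus control, was 0.61 with a standard error of 0.20, and the two-sided exact permutation test over horses gave P = 0.00652. In the limma fit over all 43384 probes the adjusted p was 0.275, so that TNF did not pass a correction for the number of probes tested.

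**Figure D2:**
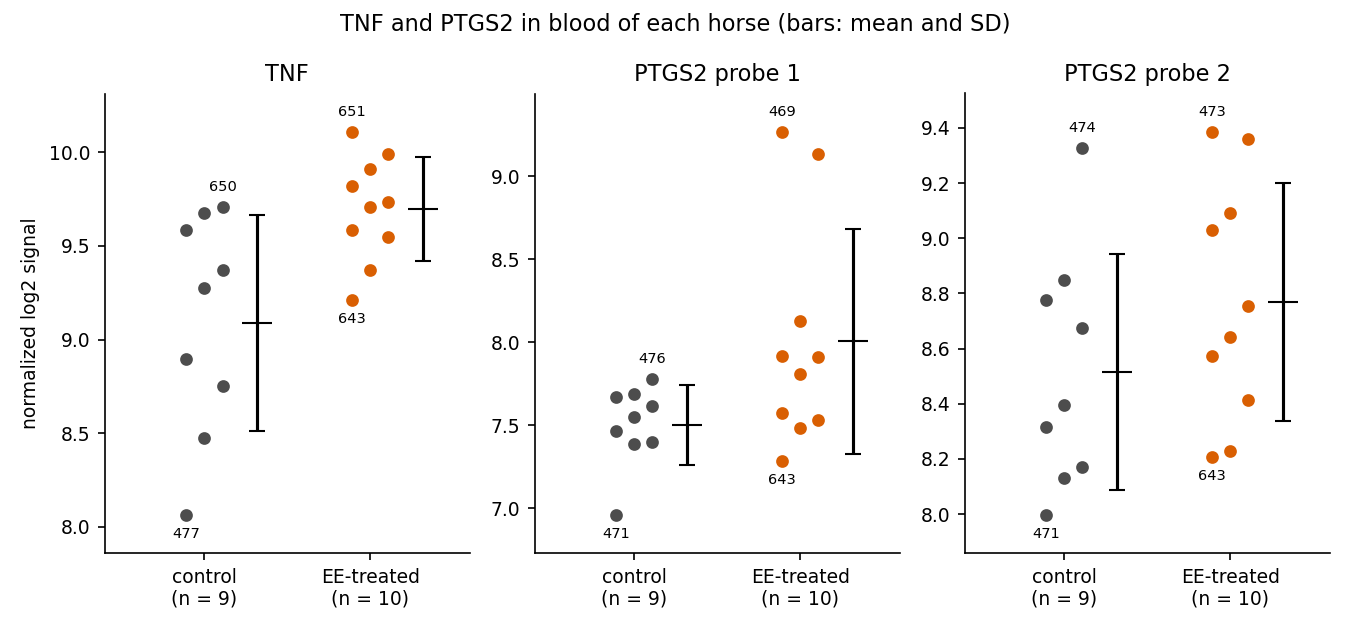
Normalized log2 signal (vertical axes, which do not start at 0) of TNF and of the 2 PTGS2 probes detected on every array, with 1 point per horse, the mean and SD of each group beside it, and the lowest and highest horse of each group labelled. TNF was spread from 8.06 to 9.71 in control horses and from 9.21 to 10.11 in EE-treated horses, and PTGS2 probe 1 was set apart in 2 EE-treated horses.

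The scaled TNF signal was lower on brighter arrays. Before scaling, the 75th percentile of an array was 588 ± 102 (SD, n = 9) for the control group and 524 ± 134 (SD, n = 10) for the EE group. This percentile is also the divisor of the scaled signal, so a probe whose signal before scaling hardly changes between arrays has a negative r with it by construction, and correlations with it are given as descriptions, without a test. Over the 19 horses, TNF had a Pearson r of -0.64 and a Spearman rho of -0.62 with the log2 of this percentile. Without the 2 arrays farthest from the median brightness r was -0.79, and within the groups it was -0.86 in control horses and -0.45 in EE-treated horses. The control horse with the lowest TNF, horse477, had the brightest control array, and the EE-treated horses with the highest TNF, horse651 and horse648, had the dimmest arrays of all 19.

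With array brightness in the fit, the TNF difference was 0.45 and the permutation test gave P = 0.016. Within the 5 slides, which each held both groups, the TNF difference was 1.54, 0.16, 0.43, 0.55 and 0.28. TNF was thus higher in EE-treated horses on each slide, but by very different amounts, and with slide as a block the difference was 0.61 (exact permutation P = 0.018). On the slides, positions 2 and 4 held the control arrays and positions 1 and 3 the enriched ones, except that EE-treated horse475 was at position 2, so that position and treatment cannot be told apart.

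**Figure D3:**
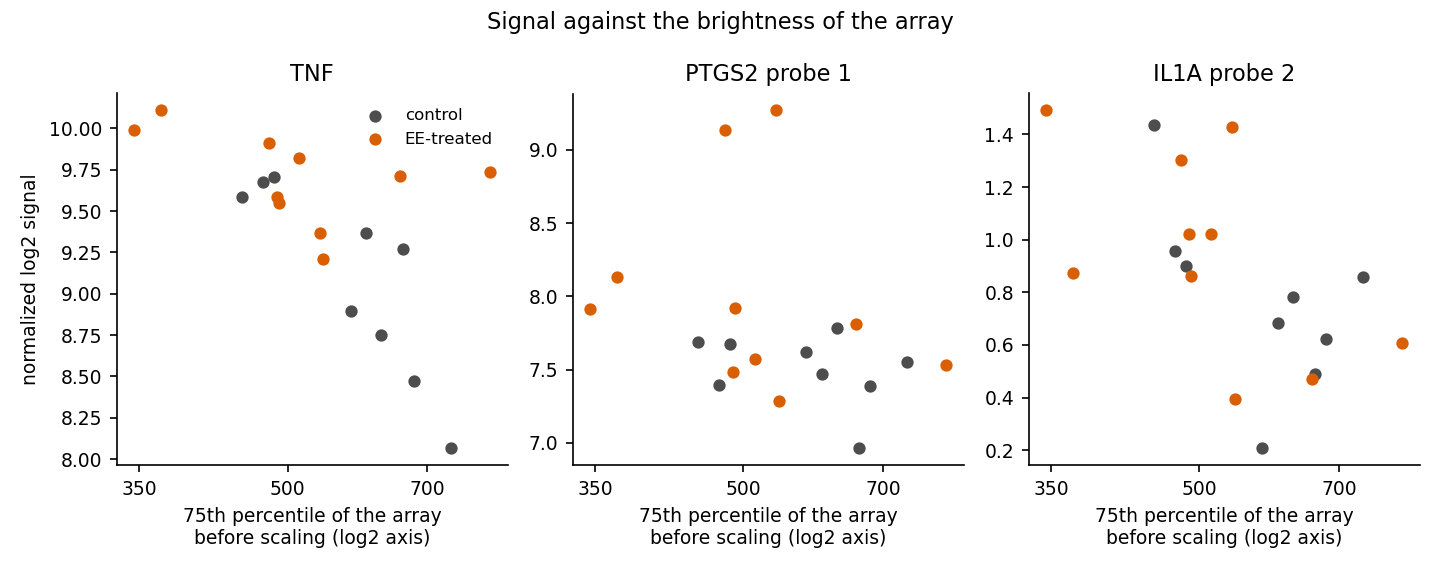
Normalized log2 signal of TNF, PTGS2 probe 1 and IL1A probe 2 (vertical axes) against the 75th percentile of the array before scaling (horizontal axes, log2 scale), with 1 point per horse. TNF was lower on brighter arrays (r = -0.64), as was IL1A probe 2, which was not well above background on any array (r = -0.61), while PTGS2 probe 1 had an r of -0.32.

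Among the 11 dim probes, 9 had a negative r with array brightness, down to -0.61 for IL1A probe 2 (A_69_P000082). For PTGS2 probe 1, r with brightness was -0.32 and rho was -0.45. For PTGS2 probe 2, r was -0.36 and rho was -0.47, with an r of -0.86 in control horses, like that of TNF, and of 0.061 in EE-treated horses.

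PTGS2 was higher in some EE-treated horses, and its probes differed in how much. For probe 1, the control horses had a lowest log2 signal of 6.96 (horse471), a median of 7.55 and a highest of 7.78. The EE-treated horses had a lowest of 7.29, a median of 7.86 and a highest of 9.27. EE-treated horse469 and horse646, at 9.27 and 9.13, stood apart from the next EE-treated horse, horse651 at 8.13, and 6 EE-treated horses lay above every control horse. The same EE-treated horse469 and horse646 had the highest summed signal of the monocyte markers CD14 and CD68 of all 19 horses. It was 22621 and 23658, against 18051 in the next horse, and came mostly from CD14, the much brighter marker. The part of this in their PTGS2 signal was not tested.

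For probe 1, the mean was 7.50 ± 0.24 (SD, n = 9) in the control group, against 8.01 ± 0.68 (SD, n = 10) with enrichment. The log2 difference was 0.50 with a standard error of 0.23 (exact permutation P = 0.0402, adjusted p = 0.408 in limma), and 8 of 10 EE-treated horses exceeded the control mean. It was 0.36 without EE-treated horse469 (unadjusted P = 0.075 in limma) and 0.38 without EE-treated horse646 (unadjusted P = 0.079 in limma). The unadjusted P in limma was also above 0.05 without EE-treated horse651 (0.0565) and without control horse470 (0.0583), horse471 (0.079), horse472 (0.0578) and horse647 (0.0542). With sex or slide in the fit the difference stayed at 0.50 and 0.49, with an unadjusted P in limma of 0.0551 and 0.0522. It was 0.44 with array brightness in the fit (0.0862) and 0.34 on the arrays of the larger scan session alone (0.11).

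For probe 2, the log2 signal ranged from 8.00 to 9.33 with a median of 8.39 in control horses and from 8.21 to 9.39 with a median of 8.70 in EE-treated horses. The groups overlapped over most of this range. The log2 difference was 0.25 with a standard error of 0.19, the exact permutation test gave P = 0.213, and 7 of 10 EE-treated horses exceeded the control mean. The highest signals of this probe were in EE-treated horse473 and horse469 and control horse474, with EE-treated horse646 below them at 9.09.

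Averaged over its 3 probes, the log2 signal of PTGS2 was 5.73 ± 0.37 (SD, n = 9) in the control group, against 6.15 ± 0.68 (SD, n = 10) with enrichment. The difference was 0.42 (exact permutation P = 0.12), and it was 0.38 without the third probe, which was seldom well above background (exact permutation P = 0.0728). Within the 5 slides it was 1.06, 0.0048, -0.32, 0.17 and 1.45, so that PTGS2, unlike TNF, was not higher in EE-treated horses on every slide. The largest differences were on the slides that held horse646 and horse469. On the arrays of the larger scan session alone, which leaves out 1 control horse and 2 EE-treated horses including horse469, the difference was 0.23 (exact permutation P = 0.382).

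**Figure D4:**
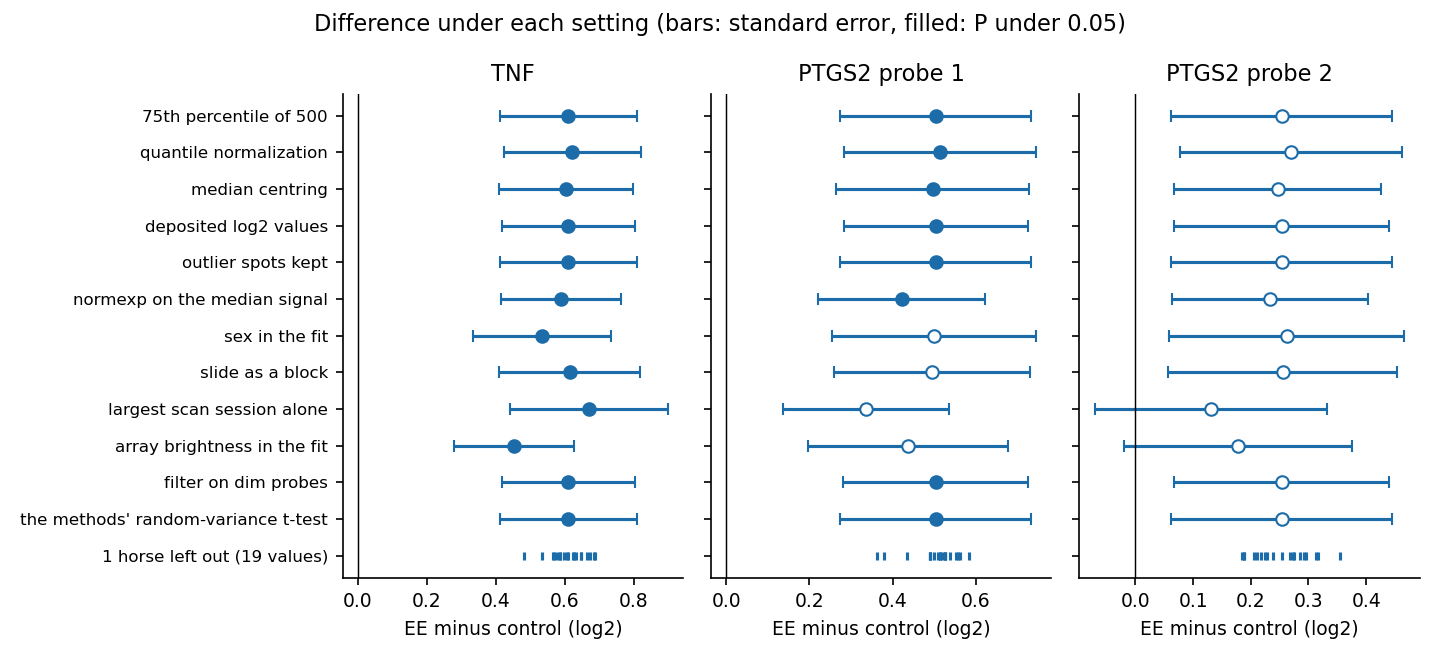
Difference in log2 signal, EE minus control (horizontal axes), of TNF and of PTGS2 probes 1 and 2 under each processing setting, with the standard error of the limma fit as bars and filled points where the unadjusted P was under 0.05; the lowest line of marks gives the 19 values with 1 horse left out. TNF lay between 0.45 and 0.69, PTGS2 probe 1 between 0.34 and 0.58, and PTGS2 probe 2 between 0.13 and 0.36.

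For IL1A, IL6 and CXCL8, the signal was not well above background on nearly all arrays of both groups, and no fold change is given. The mean signal of the IL1A probes had a median of 0.61 in control horses and 0.96 in EE-treated horses, that of IL6 1.56 and 1.04, and that of CXCL8 1.28 and 1.23. The groups overlapped in all 3 genes, and the exact permutation test gave P = 0.357 for IL1A, P = 0.904 for IL6 and P = 0.89 for CXCL8. A difference in these transcripts was not detectable at this signal, which does not show that there was none.

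At an unadjusted P under 0.05 in limma, 2 of the 14 probes differed between the groups, the TNF probe and PTGS2 probe 1, both higher in EE-treated horses. In all, 5068 of the 43384 probes (11.7%) passed this threshold, and 3229 (7.44%) passed it and were higher with enrichment. Under quantile normalization 4959 probes passed it, of which 2640 were higher in EE-treated horses. At the threshold of the study, an unadjusted P under 0.005 and a ratio no lower than 1.2 or no higher than 0.8, 789 probes passed (1.82%), with 0 of the 14 among them. At an adjusted p under 0.05, limma left 0 probes (0%). The random-variance test of the kind the study used also left 0 probes. It covered the 43232 probes with a value on every array, of which 5071 had an unadjusted P under 0.05. The paper, by contrast, reports differentially expressed genes at a false discovery rate below this level.

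The sexes were unequally spread over the groups, and TNF and PTGS2 were therefore compared within each sex. The TNF difference was 0.47 in females (3 control and 6 EE-treated horses, exact permutation P = 0.0833) and 0.59 in males (6 control and 4 EE-treated horses, exact permutation P = 0.114). For the mean of the PTGS2 probes it was 0.31 in females (exact permutation P = 0.536) and 0.54 in males (exact permutation P = 0.181). Among the undetected genes, the mean of the IL1A probes gave an exact permutation P of 0.0286 in males and 0.798 in females, from signals that were mostly not well above background. The interaction of sex and treatment, which tests whether the sexes differ in this, had an adjusted p of 0.983 or more in limma for each of the 14 probes. Its unadjusted P in limma was under 0.05 for 1 of them, IL1A probe A_69_P000081 (0.0266), and for TNF the interaction was 0.12 in log2, males minus females, with a standard error of 0.41. Over all probes limma called 0 interactions at an adjusted p under 0.05 and 1323 at an unadjusted P under 0.05. With sex in the fit, the TNF difference was 0.53 (exact permutation P = 0.0204).

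The 5 genes gave 10 pairs for correlation across horses, of which TNF and PTGS2 was the only pair of detected genes. For this pair, Pearson's r was 0.24 (permutation P = 0.329, 0.574 adjusted over the 10 pairs) and Spearman's rho was 0.30 (permutation P = 0.211, 0.381 adjusted). Without control horse477 and horse470, which had the TNF signals farthest from the median, r was 0.23. Within control horses r was -0.033 (permutation P = 0.928), within EE-treated horses it was 0.088 (permutation P = 0.81), and on the 16 arrays of the larger scan session it was 0.30 (permutation P = 0.254). Slides held too few horses for a correlation. With the single PTGS2 probes, the r of TNF was 0.29 (permutation P = 0.221) for probe 1, 0.44 (permutation P = 0.0614) for probe 2 and 0.056 for the third, which was seldom well above background. For probe 2, r was 0.22 with 2 horses left out, 0.55 within control horses and 0.0095 within EE-treated horses. With the log2 values deposited by the authors, r of TNF and PTGS2 was 0.48 (permutation P = 0.0371, 0.053 adjusted), so that the call depended on the values used. With 2 horses left out, r from the deposited values was 0.36 (permutation P = 0.158).

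Over the other 9 pairs r lay between -0.45 and 0.39, and 0 of the 10 pairs had a permutation P of r under 0.05. The lowest r was that of IL6 and PTGS2, at -0.45 (permutation P = 0.0583, 0.339 adjusted), with a rho of -0.53 (permutation P = 0.0205, 0.205 adjusted), and r was -0.39 without control horse471 and EE-treated horse468, the horses in which IL6 was detected. Within control horses their r was -0.19 (permutation P = 0.611) and rho -0.10 (permutation P = 0.81), and within EE-treated horses r was -0.54 (permutation P = 0.1) and rho -0.77 (permutation P = 0.0125). IL1A and CXCL8 had the highest r, at 0.39 (permutation P = 0.102) and a rho of 0.42 (permutation P = 0.0738). Without control horse650 and EE-treated horse473, the farthest in IL1A, that r was 0.49 (permutation P = 0.0468). IL1A and IL6 had an r of -0.39 (permutation P = 0.0953) over all horses, of -0.83 in control horses (permutation P = 0.00211) and of -0.23 in EE-treated horses (permutation P = 0.465). For IL6 with PTGS2 and with IL1A, the difference in correlation between the groups was not tested. The rho of IL1A and IL6 was -0.44 (permutation P = 0.0602), and without control horse650 and EE-treated horse473 r was -0.26. In each of these pairs, at least 1 gene was not well above background in most horses.

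**Figure D5:**
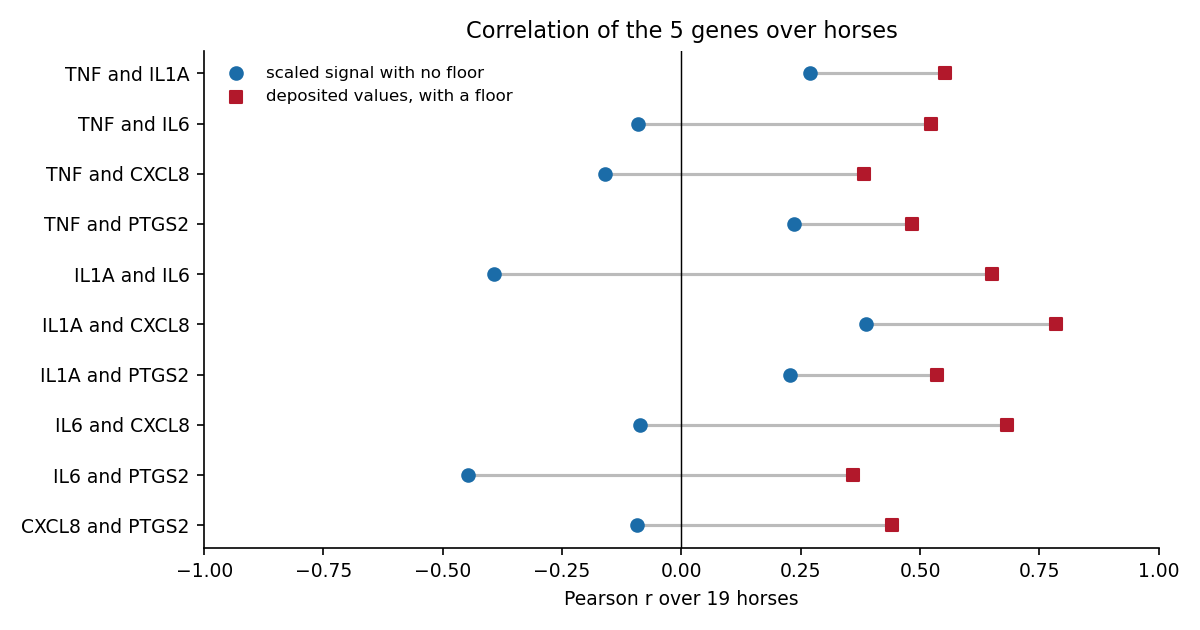
Pearson r over the 19 horses (horizontal axis) for the 10 pairs of genes, computed from the scaled signal without a floor (circles) and from the log2 values deposited by the authors, in which low signals are raised to a floor (squares). All 10 squares lie to the right of their circles, and r was at least 0.36 in each pair with the deposited values.

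The correlations depended on how low signals were treated. In the log2 values deposited by the authors, signals under 10 are raised to 10 before scaling, so that the floor differs from array to array, between 2.62 and 3.85. IL1A probe 2 and the CXCL8 probes A_69_P004851, A_69_P004852 and A_69_P004853 were at this floor on all 19 arrays, IL6 on 18 and the third PTGS2 probe on 16. The floor had a mean of 3.11 in control horses and 3.29 in EE-treated horses, and each of the 4 probes at the floor on every array had that same difference of 0.19. With these values, 7 of the 10 pairs had a permutation P of r under 0.05, and r was 0.65 for IL1A and IL6 and 0.78 for IL1A and CXCL8. Probes at the floor share 1 value per array, so a positive r among IL1A, IL6 and CXCL8 arises largely by construction. For these pairs the P cannot test whether the transcripts varied together.

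Of the 461 other named genes detected on all 19 arrays, those with a pattern most like TNF across horses were DNASE1, SLC4A2 and PRM1, with r of 0.86, 0.84 and 0.84. Their own r with array brightness was -0.76, -0.58 and -0.76, as a description. DNASE1 was dim, with a mean log2 signal of 3.45 in control and 3.82 in EE-treated horses. The dimmest detected probe of each array lay between 2.29 and 3.37. The 2 genes most like PTGS2 were CASP1 (r = 0.74), which encodes the protease that activates interleukin 1 beta and interleukin 18, and IL18 itself (r = 0.74). For the undetected genes, the most alike were PITPNC1, ITGA5 and MMP9 for IL1A (r from 0.66 to 0.77), SDHB, TXN and LRP12 for IL6 (r from 0.58 to 0.59), and PDGFC, STRN3 and TENT5A for CXCL8 (r from 0.52 to 0.54). These r were chosen as the highest of the 461 or 462 genes compared and carry no test.

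Other genes of the same pathways were read from lists, most of whose genes could not be named through RefSeq accessions and were not analysed here. The genes named were 16 of 24 other cytokines and chemokines, 4 of 14 receptors and decoys, 7 of 14 enzymes, 5 of 24 genes of NF-κB and Toll-like receptor signalling, and 2 of 11 immediate-early and mRNA decay genes. Of 40 probes of 16 other cytokines and chemokines, 1 passed an unadjusted P under 0.05 in limma, against 11.7% of all probes. It was that of TGFB1, a largely anti-inflammatory cytokine, which was higher with enrichment by 0.26 in log2 (standard error 0.11, adjusted p = 0.357, 8 of 10 EE-treated horses above the control mean). IL18 had a difference of 0.67 (standard error 0.34, adjusted p = 0.449, 7 of 10 above). Of 18 probes of 4 receptors and decoys, 3 passed, against 11.7% of all probes. They were 3 of the 6 probes of PTGER2, a receptor of prostaglandin E2, with differences from 0.22 to 0.24 (adjusted p from 0.341 to 0.385, 9 of 10 above at each). The other 3 PTGER2 probes had differences of 0.19, 0.21 and 0.13 (adjusted p from 0.44 to 0.584, 7 or 8 of 10 above). IL1R1, the receptor through which interleukin 1 signals, was detected in 4 of 9 control and 6 of 10 EE-treated horses.

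Of 17 probes of 7 enzymes of cytokine shedding and prostanoid synthesis, 5 passed, all higher in EE-treated horses, against 7.44% of all probes that passed in that direction. They included both probes of PLA2G4A, the phospholipase that releases arachidonic acid, the substrate of PTGS2, with differences of 0.71 and 0.35 (adjusted p = 0.414 and 0.427, 10 of 10 and 9 of 10 above). PTGDS, a prostaglandin D2 synthase, had a difference of 0.32 (standard error 0.12, adjusted p = 0.326, 9 of 10 above) at a detected probe. A second PTGDS probe, at P = 0.00419 the only one of these lists past the threshold of the study, was well above background on 0 arrays, so that no fold is given. The remaining probe was 1 of the 5 probes of ALOX5AP, a protein needed for leukotriene synthesis, which is named here after its values were seen.

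Of 7 probes of 5 genes of NF-κB and Toll-like receptor signalling, 0 passed in either direction, against 11.7% of all probes. TLR4, the receptor of bacterial lipopolysaccharide, had differences of 0.25 and 0.26 (adjusted p = 0.511 and 0.553, 7 of 10 and 8 of 10 above), and TLR2 had a difference of -0.36 (adjusted p = 0.564, 1 of 10 above). Of the 2 named genes of the immediate-early and mRNA decay list, with 1 probe each, 1 passed. It was SOCS3, an inhibitor of cytokine signalling that is itself induced by cytokines, which was higher by 0.46 (standard error 0.17, adjusted p = 0.319, 10 of 10 above). FOS had a difference of -0.036 (adjusted p = 0.947, 4 of 10 above). The median differences of these 5 lists, dim probes included, were 0.064, 0.11, 0.35, 0.25 and 0.21, against 0.064 over all probes. The median over all probes was 0.0046 with dim probes filtered and -0.0019 with quantile normalization, so that small list medians cannot be read as differences.

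In whole blood, fewer cells of a type and less RNA per cell cannot be told apart. Of the 18 probes of the marker lists, 2 passed an unadjusted P under 0.05 in limma, against 11.7% of all probes, namely those of MMP9 (neutrophils) and 1 of SLC4A1 (red cells). MMP9 was higher by 0.59 in log2 with enrichment (standard error 0.23, adjusted p = 0.342), with 10 of 10 EE-treated horses above the control mean. LTF, the other neutrophil marker, had a difference of -0.27 (adjusted p = 0.826, 3 of 10 above). The summed signal of these neutrophil markers, mostly MMP9, had a median of 7610 (3758 to 14396) in control horses and 11023 (8074 to 17176) in EE-treated horses.

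For monocytes, a main source of TNF, the summed signal of CD14, the brighter, and CD68 had a median of 11920 (5984 to 18051) in control horses and 13425 (9021 to 23658) in EE-treated horses. This sum was mostly CD14, with a mean log2 signal of 13.47 in control horses against 8.12 for CD68. CD14 had a difference of 0.27 (adjusted p = 0.579, 7 of 10 above the control mean). CD68 had a difference of -0.00074 (adjusted p = 0.999, 4 of 10 above). For T cells (CD2, CD28 and IL7R, led by CD2) the median summed signal was 761 (581 to 1262) and 970 (656 to 1161). For natural killer cells (GZMB, the brighter, and KLRB1) it was 6144 (2414 to 20920) and 4861 (2353 to 12836). For platelets (ITGA2B) it was 271 (196 to 526) and 302 (161 to 502). For red cells (HBA2, the brightest, HBB and SLC4A1) it was 8797 (3086 to 41100) and 5188 (3030 to 113020), although the mean log2 signal of HBA2 was higher in EE-treated horses, by 0.33 (adjusted p = 0.822, 4 of 10 above the control mean). The SLC4A1 probe that passed was detected in 0 control horses and 1 EE-treated horse. Across the 19 horses and on the log2 scale, the T cell sum had a Pearson r of 0.70 with TNF, and the monocyte and natural killer cell sums had an r of 0.55 and -0.47 with PTGS2, given as descriptions. The other 9 such r lay between -0.14 and 0.30. The groups overlapped in every one of these sums, and their part in the TNF and PTGS2 results was not tested.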

How the data were processed

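The scanner files deposited by the authors give each spot a background-corrected intensity from Agilent Feature Extraction (version 10.7.3.1 in the file headers, 9.1 in the submitters' notes), with other columns that mark a spot as well above background, as positive and significant, as saturated or as an outlier. A second deposited table holds log2 values that the authors had scaled to a 75th percentile of 500, with intensities under 10 raised to 10. Here the processed intensity of the non-control spots was brought to a 75th percentile of 500 on each array, without a floor, and log2 was taken. Spots marked as outliers were then left out, and the log2 values of the spots of a probe were averaged. Symbols came from the RefSeq accessions of the probes, which named 1781 of 3275 probes with such an accession.

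Probes were compared with limma 3.58.1 in R 4.3.3, with Benjamini-Hochberg adjustment over all 43384 probes. Means over the probes of a gene were compared with an exact permutation test over horses, and correlations were tested with 100000 permutations and adjusted over the 10 pairs (Python 3.11.15, numpy 2.4.6, pandas 2.3.3, scipy 1.17.1). All tests were two-sided, and the code was tested on simulated data. For IL1A, IL6 and CXCL8, whose signal was mostly not well above background, a P is given without a fold. The genes named are the 5 members, the list genes past the threshold of the study or with the 2 smallest P of a list, and the 3 genes most alike to each member (for PTGS2, 1 of them is not reported here). The members and lists were chosen with earlier results of these data known.

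The alternatives were quantile normalization, median centring, the deposited log2 values, outlier spots kept, normexp correction (offset 50) of the median signal without the 26 spots whose local background was over 1000, sex, slide or array brightness in the fit, the larger of the 2 scan sessions, a filter on dim probes, the random-variance test, the brightest probe of a gene, residuals in place of values for correlations, the looser detection mark, and each horse left out.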

Additional observations from a re-analysis of the deposited data

Results flagged for a closer look

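In 6 of 30 groups of horses, 1 horse stood apart from the rest of its group, by a gap to its nearest neighbour that was a large share of the range of the group. The groups were those of 15 probes and gene means, which were not all of those measured. The count of 6 rests on this choice. For normally distributed values, chance alone sets a horse apart in about 1 in 20 groups. Most of these probes were dim, with high values in single horses, so that this rate need not hold here. For IL1A probe A_69_P000081, control horse650 had a log2 signal of 5.54 against 1.03 in the next control horse, a gap of 0.808 of the range. For IL1A probe A_69_P000083, EE-treated horse473 had 5.74 against 1.46, a gap of 0.766 of the range.

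For the CXCL8 probes, each value is set against the next EE-treated horse. Probe A_69_P004851 had 2.45 in EE-treated horse648 against 1.41 (gap 0.494 of the range). Probe A_69_P004854 had 5.21 in EE-treated horse473 against 1.94 (gap 0.672), and A_69_P004855 had 5.04 in EE-treated horse643 against 2.41 (gap 0.572). For PTGS2 probe A_69_P000996, control horse471 was the lowest, at 6.96 against 7.39 in the next control horse (gap 0.523). The spot was well above background in 5 of these 6 cases, the exception being EE-treated horse648. What set these horses apart was not tested.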

How the results depend on the processing

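TNF was higher in EE-treated horses, with an exact or permutation P under 0.05, under each of 10 alternatives (difference 0.45 to 0.67) and without each horse (0.48 to 0.69). The mean of the PTGS2 probes was higher in EE-treated horses, with P above 0.05, under each of 11 alternatives (0.23 to 0.44) and without each horse (0.29 to 0.52). Not all alternatives could change these values. Keeping outlier spots left both genes as they were, and filtering dim probes could not alter TNF, detected on every array. The deposited values repeat the same scaling for TNF (difference 0.61), which was at their floor on 0 arrays. For IL1A, IL6 and CXCL8 the P was above 0.05 under every alternative, and between 0.0792 and 0.674, 0.255 and 0.997, and 0.584 and 0.992 without 1 horse.

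Of the 14 probes, 1 in place of 2 passed an unadjusted P under 0.05 with sex, slide or array brightness in the fit and in the larger scan session, and 1 to 3 passed without 1 horse. At the threshold of the study, 1 in place of 0 passed with the deposited log2 values, with normexp correction and with dim probes filtered, and 0 to 1 without 1 horse (1 without control horse472, horse474 or horse650 or EE-treated horse643). Over all probes, that threshold gave 482 with normexp correction, 457 with brightness in the fit and 501 to 1039 without 1 horse (501 without control horse477). At an adjusted p under 0.05 limma gave 39 with normexp correction, 2 with dim probes filtered, for which 25683 probes were tested, and 0 to 3 without 1 horse (3 without control horse650, 1 without control horse472).

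The r of TNF and PTGS2 was 0.48 with the deposited values (permutation P = 0.0371). The number of the 10 pairs with a permutation P of r under 0.05 was 7 with the deposited values, 2 with quantile normalization, 2 with the brightest probe, 1 with residuals from group means, 3 with residuals from sex and group means and 1 with residuals from brightness. IL6 and PTGS2 were among them in all but the first and last of these, and TNF and CXCL8 with quantile normalization (r = -0.47, permutation P = 0.0399), the brightest probe (-0.46, 0.0446) and residuals from brightness (-0.53, 0.0193). With the deposited values the sign of r reversed in 6 of the 10 pairs, namely IL6 and PTGS2 (0.36), IL1A and IL6 (0.65), TNF and IL6 (0.52), TNF and CXCL8 (0.38), IL6 and CXCL8 (0.68) and CXCL8 and PTGS2 (0.44). It reversed for IL1A and CXCL8 (-0.10) with the brightest probe. The looser detection mark gave 85 spots in place of 11. Apart from the smaller number of probes or horses tested, and the floor that sets the deposited values apart, the cause was not tested in these cases.

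Brightness in the fit, residuals from brightness, the limit on local background and the looser mark were chosen after seeing the data. No paired analysis was possible because the groups share no horse. Signal over background limits the comparison of IL1A, IL6 and CXCL8.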
